A study of Mus musculus with 12 samples.

Results

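Colon of mice given dextran sulfate sodium (DSS) together with rhynchophylline (Rhy) was compared with colon of untreated mice, to see which transcripts remained away from the untreated level in treated animals. The comparison used 6 of the 12 RNA-seq libraries of the series, 3 from the control group and 3 from the Rhy group, chosen by the treatment in the sample labels. All animals were wild-type C57BL/6J males obtained at 5 weeks of age. Control mice received no agent, Rhy mice received DSS and Rhy, and the 3 libraries of the model group, whose values are set beside the others, came from mice given DSS alone. The remaining 3 libraries came from mice given DSS and dexamethasone (DXM) and entered the fit only to estimate the spread. Rhy was given to mice of the study at 2, 4 or 8 mg/kg, and the labels do not say which dose the sequenced mice had, so the Rhy group is described without a dose. Each library was a section of bulk colon whose position along the organ is not stated, and the labels name no separate animal for each library. The p-values therefore measure the spread between these libraries.

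DSS is a sulfated polysaccharide that damages the colonic surface epithelium when mice drink it, and the crypts then divide to refill the lost surface. Dividing crypt cells need histone chaperones, helicases and nucleotide-making enzymes to copy DNA, and many ribosomes to make protein, while the mature surface cell carries microvilli. Rhy is an oxindole alkaloid of Uncaria plants, and the study concerned its link to the aryl hydrocarbon receptor (AhR) and the nuclear receptor NR4A1.

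Libraries held 15662589 to 16601454 counted reads in the control group and 14346478 to 16303944 in the Rhy group. Several libraries stood apart in ways the treatments do not give. Hoxb13, a transcription factor of the distal colon, was at 155, 72 and 0.165 CPM (counts scaled to a common library size) in control 1, 2 and 3. It was at 0, 316 and 230 CPM in Rhy 1, 2 and 3, so each group had 1 library that nearly lacked it. Model 3 was low too, at 1.49 CPM against 226 and 205 CPM in model 1 and 2. B cell genes were low in control 3 and Rhy 1: the 20 members measured summed to 46.1 CPM in control 3 and 16.3 CPM in Rhy 1. The other 4 control and Rhy libraries held 322 to 564 CPM, and model 3 held 372 CPM. Some small intestinal transcripts were far higher in Rhy 3. The bile acid binding protein gene Fabp6 was at 324 CPM against 2.53 to 10.1 CPM in the other 5, and Olfm4 had 283 reads against 0 to 2. The sucrase-isomaltase gene Sis was at 64.1 CPM in Rhy 3, 14.5 CPM in control 3 and 2.99 CPM in control 2, with 0 to 1.11 CPM in control 1, Rhy 1 and Rhy 2. Summed, the small intestine list was at 2390 CPM in Rhy 3 and 2570 CPM in control 2. Mitochondrially encoded reads took 6.33% to 21% of the control libraries and 8.9% to 23.8% of the Rhy libraries. The part of these differences in the results below was not tested, other than by leaving out each library in turn and by a term for low Hoxb13. Of 23 pancreatic acinar genes 6 were tested and 6 had no read in any library, and the tested ones were led by Zg16, which goblet cells also make, at 504 to 4534 CPM in control and 179 to 3852 CPM in Rhy colon. The 16 genes that define colon epithelium were all measured, at 35600 to 47000 CPM in sum in the control libraries and 32400 to 39000 CPM in Rhy colon.

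No gene passed an adjusted p of 0.05 between the Rhy and control groups. Of 16904 genes tested with edgeR's quasi-likelihood test and Benjamini-Hochberg adjustment, 0 passed (0%), with 0.364 as the lowest adjusted p. Without adjustment 1953 genes had a p under 0.05 (11.6% of those tested), of which 1092 were higher in the Rhy group (6.46%) and 861 lower (5.09%). Values of all 3 Rhy libraries lay above all 3 control libraries for 1267 genes (7.5%) and below them for 810 genes (4.79%). The model group, in the same fit, gave 1626 genes at an unadjusted p under 0.05 against the control group (9.62%, 5.11% higher and 4.51% lower) and 0 after adjustment (0%). Between the Rhy and model groups 628 genes had such a p (3.72%), 1.74% higher and 1.98% lower in Rhy colon, and 0 passed adjustment. The Rhy and model comparisons share the 3 control libraries, so their values are placed side by side below and no agreement between them is drawn. Counts at an unadjusted p are descriptions, and no gene below is called changed on them. The number at an unadjusted p was 2938 without control 3 and 1195 without Rhy 2. DESeq2 on the 12 libraries called 33 genes of 14924 with an adjusted p (0.221%), 21 higher and 12 lower, and on the 6 libraries alone it called 2 of 26940 (0.00742%). Limma on the deposited FPKM values called 0 at either pseudocount.

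On the higher side, the 12 protein-coding genes with the smallest p among those at 5 CPM or more whose groups did not overlap had varied roles. Of these Mrps28, Tubg1, C1qbp, Npm3, U2af1, Snrpd3, Vars, Sms, Rps21, Smpx and Gar1 were also called by DESeq2 on 12 libraries, with Mrto4 the exception. Mrps28, a protein of the small mitochondrial ribosomal subunit on chr3:8802146-8923918 (mm10), was at 22.8, 21.4 and 25.9 CPM in the control libraries, 36, 38.3 and 39.6 CPM in model colon, and 48.3, 45.3 and 44.9 CPM in Rhy colon. The 3 Rhy values lay above every model value, which in turn lay above every control value. The log2 fold change of Rhy against control was 0.98 (SE 0.18, edgeR adjusted p = 0.364), and that of model against control was 0.70. C1qbp, a mitochondrial matrix protein, was at 49.6, 70.5 and 75.6 CPM in the control libraries and at 141, 146 and 128 CPM in Rhy colon, a log2 fold change of 1.08 (SE 0.21). Npm3, a nucleolar chaperone, was at 19.3, 22.9 and 30.7 CPM in control and 54.1, 54.6 and 53 CPM in Rhy colon, a log2 fold change of 1.15 (SE 0.24). Rps21, of the small cytosolic ribosomal subunit, went from 290, 235 and 224 CPM to 438, 522 and 393 CPM (0.85, SE 0.19). Gar1 and Mrto4 act in ribosome assembly, U2af1 and Snrpd3 in splicing, Vars charges valine to its tRNA, Sms makes spermine, Tubg1 is the gamma-tubulin that nucleates microtubules, and Smpx is a small muscle protein. Their log2 fold changes of Rhy against control ran from 0.77 for Vars to 1.73 for Smpx.

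On the lower side 12 genes were chosen in the same way, and their roles were varied too. Dgkh, a diacylglycerol kinase on chr14:78558750-78732776 (mm10), was at 77.9, 98.3 and 59 CPM in the control libraries, 48.1, 52.1 and 40.4 CPM in model colon and 42.6, 30.6 and 26.9 CPM in Rhy colon. Its log2 fold change of Rhy against control was -1.23 (SE 0.23, edgeR adjusted p = 0.364), against -0.74 for model against control. Slc17a9, a vesicular nucleotide transporter, was at 125, 105 and 73.1 CPM in control and 44.9, 49.2 and 37.9 CPM in Rhy colon, a log2 fold change of -1.2 (SE 0.23), and the model libraries held 46.8 to 53.8 CPM. Sorl1, a sorting receptor, was at 88.5 to 119 CPM in control colon, with 78.2 to 90.2 CPM in model colon and 57.6, 64.3 and 59 CPM in Rhy colon. Its log2 fold change was -0.85 (SE 0.19) for Rhy against control and -0.34 for model against control. Cbl is a ubiquitin ligase that acts on receptor tyrosine kinases, Map3k1 a kinase of the JNK pathway, Kif21b a kinesin, Cdc14b a phosphatase of the cell cycle, Fbxl20 a substrate receptor of a ubiquitin ligase and Ppp1r15a the stress-induced subunit that restores translation. The remaining members were Dennd1b, Etl4 and Ttll10. Log2 fold changes of the 12 lay between -0.69 for Map3k1 and -1.37 for Kif21b.

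**Figure D1:**
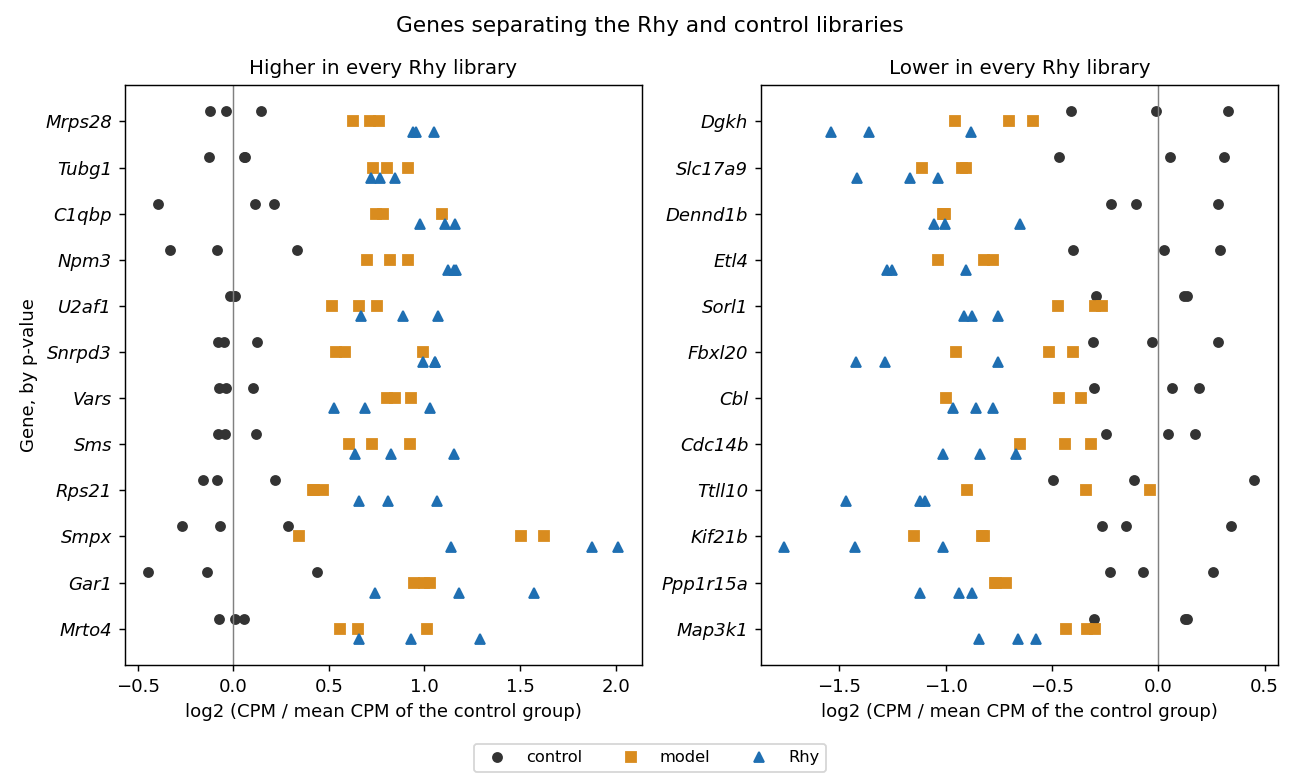
Each point is 1 library, placed by the log2 ratio of its CPM to the mean CPM of the control group, for the 12 genes with higher and the 12 with lower values in every Rhy library. For Mrps28 the Rhy libraries at 44.9 to 48.3 CPM lie to the right of the model libraries at 36 to 39.6 CPM, while for Tubg1 and Dennd1b the model and Rhy libraries overlap.

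The smallest unadjusted p of the comparison belonged to a copy of a ribosomal protein gene. Rps26-ps1, a transcribed processed pseudogene on chr8:107439131-107439579 (mm10), was at 3.97, 7.30 and 3.18 CPM in the control libraries, 114, 100 and 148 CPM in model colon and 298, 148 and 120 CPM in Rhy colon. The log2 fold change of Rhy against control was 5.29 (SE 0.91, edgeR adjusted p = 0.364), and DESeq2 called it on both 12 and 6 libraries. The parent gene Rps26 was at 665 to 873 CPM in control and 810 to 1188 CPM in Rhy colon. Reads of a near-identical copy can be assigned to either gene, so the level of the pseudogene is uncertain. Rps26-ps1 was picked out after its values were seen.

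Genes that copy DNA were the list furthest above the untreated level. All 34 measured members had a positive log2 fold change of Rhy against control, with a median of 1.14 beside -0.0275 over all 16904 genes, and 25 were higher at an unadjusted p under 0.05 while 0 were lower (73.5%, against 6.46% of all genes). For model against control the median was 1.32. Chaf1b, a subunit of the chaperone that loads histones on new DNA, was at 5.84, 5.08 and 8.84 CPM in control, 17.5, 17.2 and 15.4 CPM in model and 9.67, 26.7 and 22.1 CPM in Rhy colon. All Rhy libraries lay above the controls, and Rhy 1 lay closest to them. The log2 fold change was 1.56 (SE 0.39, edgeR adjusted p = 0.364). Prim1, the primase that lays RNA primers, was at 7.11, 8.07 and 8.56 CPM in control and 9.07, 25.9 and 21.2 CPM in Rhy colon (1.24, SE 0.33). Cdc6, which loads the replicative helicase, was at 2.92, 4.73 and 4.61 CPM in control and 5.57, 12.5 and 11.2 CPM in Rhy colon (1.26, SE 0.36). Tyms, which makes thymidylate, was at 10.5, 17.3 and 22.2 CPM and at 26.7, 45.5 and 42.8 CPM (1.2, SE 0.34). In all of these Rhy 1 was the lowest Rhy library.

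Among the replication genes of highest level, the sliding clamp gene Pcna was at 26.7, 44.6 and 64.2 CPM in control and 65.7, 87.3 and 122 CPM in Rhy colon. The helicase subunit gene Mcm6 was at 10.4, 17.7 and 49.3 CPM in control and 45.1, 92.9 and 90.3 CPM in Rhy colon, so that Rhy 1 fell below control 3. The maintenance methyltransferase gene Dnmt1 was at 18.1, 27.6 and 45.1 CPM and at 29.8, 64.8 and 65.6 CPM, again with Rhy 1 inside the control range. Groups did not overlap, with Rhy higher, for 11 of the 34 genes, where 7.5% of all genes were higher without overlap. The mean log2 CPM of the list was 2.58, 3.07 and 3.74 in the control libraries, 4.44 to 4.6 in the model libraries and 3.49, 4.58 and 4.63 in the Rhy libraries, so that Rhy 1 lay within the control range. Leaving out 1 library moved the count between 17 (without Rhy 3) and 30 (without Rhy 1), and the median between 0.96 and 1.41.

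**Figure D2:**
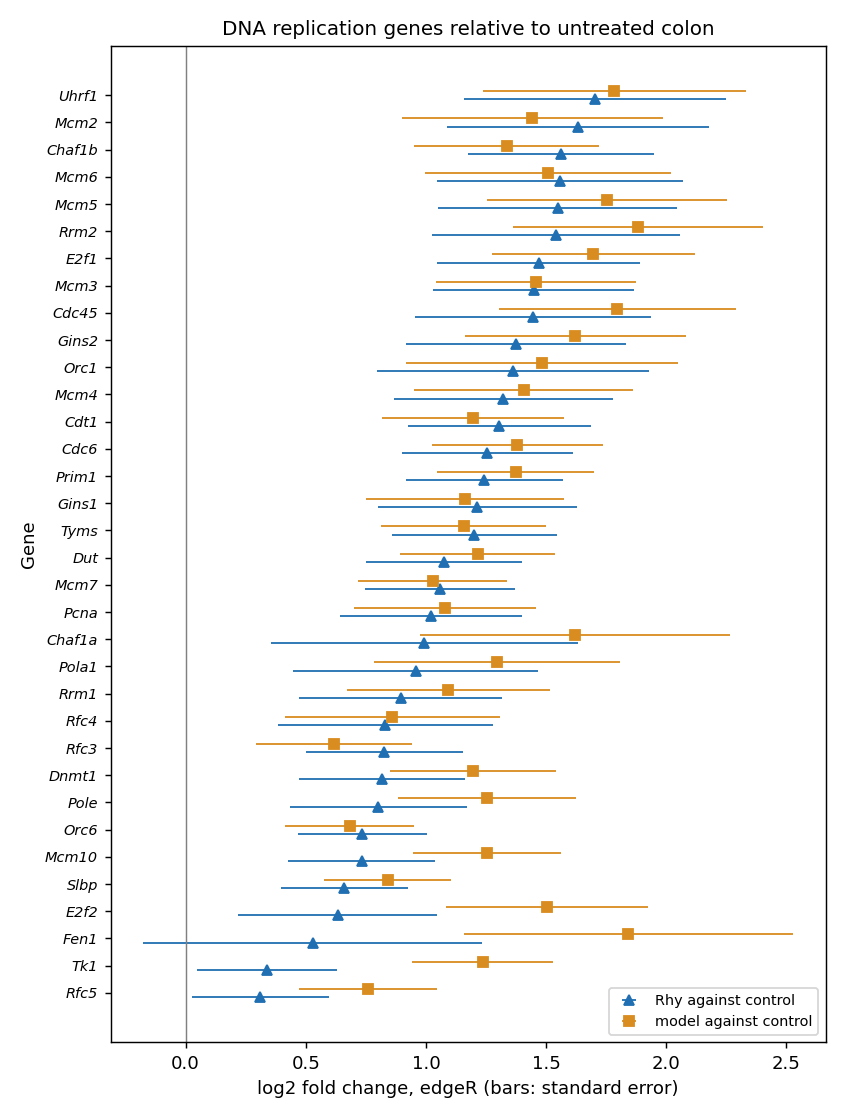
Points give the log2 fold change against the control group of the 34 DNA replication genes, triangles for Rhy and squares for model, with bars for the standard error. All Rhy values lie to the right of 0, from 0.31 for Rfc5 to 1.71 for Uhrf1.

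Genes of mitosis did not stand apart in the same way. Of 44 members 0 were higher and 0 lower at an unadjusted p under 0.05, and their median log2 fold change was 0.20 for Rhy against control, beside 0.88 for model against control. The proliferation antigen gene Mki67 was at 157, 58.3 and 87.4 CPM in control, 131, 141 and 86.9 CPM in model and 44.4, 83.3 and 114.5 CPM in Rhy colon. Top2a, the topoisomerase that untangles chromosomes, was at 26.1, 25.5 and 60.3 CPM in control and 22.3, 48.5 and 69 CPM in Rhy colon. The control and Rhy ranges overlapped for both, and neither passed an unadjusted p of 0.05. Without control 3 or without Rhy 1, 5 of the 44 were higher at that level, and without Rhy 3 the median was -0.072. A difference between the replication and mitosis lists was not tested.

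The promoters of the replication genes are shown because many of these genes are textbook targets of E2F factors, whose sites contain the letters TTTNNCGC (N for any base). This motif was searched on both strands in the 250 bases before the start site in RefSeq (GRCm38.p6), for 1 start per gene, the one nearest to the deposited gene start. RefSeq starts were matched for 30 of the 34 genes, and the motif was present in 8 of them (26.7%), compared with 792 of the 11930 promoters of all tested genes that could be matched (6.64%). The matches are a description and not shown to be sites. The members printed are the 3 with the smallest p whose last 150 bases before the start hold the motif, with motif letters in capitals: Cdc6 at chr11:98908001-98908150 on the + strand, Uhrf1 at chr17:56303187-56303336 on the + strand, and Mcm5 at chr8:75109359-75109508 on the + strand.
Cdc6: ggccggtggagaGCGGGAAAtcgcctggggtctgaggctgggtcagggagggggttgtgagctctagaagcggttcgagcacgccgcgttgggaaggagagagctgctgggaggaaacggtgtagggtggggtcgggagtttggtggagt
Uhrf1: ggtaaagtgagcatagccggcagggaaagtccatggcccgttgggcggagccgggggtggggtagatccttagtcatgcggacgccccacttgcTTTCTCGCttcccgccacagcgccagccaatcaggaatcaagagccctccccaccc
Mcm5: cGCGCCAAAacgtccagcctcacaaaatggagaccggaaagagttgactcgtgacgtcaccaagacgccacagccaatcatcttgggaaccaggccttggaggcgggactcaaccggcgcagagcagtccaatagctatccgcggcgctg
Uhrf1, which brings Dnmt1 to new DNA, was at 5.54, 14.7 and 30.7 CPM in control, 61.3, 61.6 and 53.4 CPM in model and 27.9, 73.5 and 65.2 CPM in Rhy colon. Mcm5, another helicase subunit gene, was at 8.09, 12.5 and 27.4 CPM in control and 18.6, 65.1 and 57.1 CPM in Rhy colon. Rhy 1 lay inside the control range for both genes.

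Families of ribosome, splicing, chaperonin and proteasome genes had positive median log2 fold changes of Rhy against control. They were formed from gene symbols after the values were seen and are not independent evidence. Of 77 mitochondrial ribosomal protein genes (Mrpl, Mrps), 36 were higher and 0 lower at an unadjusted p under 0.05 (46.8%, against 6.46% of all genes). Their median was 0.49 on the log2 scale. Groups did not overlap, with Rhy higher, for 42, where 7.5% of all genes were higher without overlap. Mrps14 was at 31.7, 40 and 35 CPM in control, 47.9, 48.2 and 52.9 CPM in model and 60.4, 61.2 and 64.1 CPM in Rhy colon, a log2 fold change of 0.80 (SE 0.19). Mrpl40 was at 26.6, 29.4 and 27.1 CPM in control and 44, 45.1 and 41.3 CPM in Rhy colon (0.65, SE 0.16), with the model libraries in between at 31.8 to 35.7 CPM. The 3 Rhy libraries lay close together in both genes and above all other libraries of the 3 groups.

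Of 73 cytosolic ribosomal protein genes (Rpl, Rps), 35 were higher (47.9%, against 6.46% of all genes) and 0 lower at an unadjusted p under 0.05. Their median was 0.50 on the log2 scale for Rhy against control and 0.20 for model against control. Rpl32 was at 476, 591 and 458 CPM in control, 717, 718 and 810 CPM in model and 886, 1113 and 662 CPM in Rhy colon (0.80, SE 0.22). The summed level of the family was 32100 to 43200 CPM in control and 46800 to 61600 CPM in Rhy colon. Many ribosomal protein genes have pseudogene copies that could take or give reads. This count depended on the libraries used: it was 12 without Rhy 2, 17 without control 3, 23 without control 2, and 8 in the fit to the 6 libraries alone. DESeq2 on those 6 gave 13, and the medians over these settings were 0.36 to 0.51. For the mitochondrial ribosomal proteins the count was 27 to 37 without 1 library 27 in the fit to 6 libraries and 15 with DESeq2 on the 6.

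Of 12 genes of the spliceosomal core (Snrp), 9 were higher at an unadjusted p under 0.05, with a median of 0.69. Snrpd1, which forms part of the Sm ring, was at 35.4, 25.9 and 27.1 CPM in control and 44.1, 79 and 88.1 CPM in Rhy colon, a log2 fold change of 1.26 (SE 0.31). Proteasome subunit genes gave 17 of 38 (median 0.41), with Psmc2 of the base at 84.3, 73.2 and 64.7 CPM in control and 99.3, 114 and 101 CPM in Rhy colon (0.50, SE 0.16). Without 1 library the proteasome count ran from 6 (without Rhy 3) to 15, and it was 4 in the fit to 6 libraries and 1 with DESeq2 on the 6, with medians of 0.37 to 0.42. Translation initiation factors gave 16 higher and 1 lower of 54, chaperonin subunits 4 of 7, importers of mitochondrial proteins 8 of 23, and RNA polymerase subunits 7 higher and 2 lower of 28, where 6.46% of all genes were higher. Leaving out 1 library took the number higher down to 1 for chaperonin subunits (without Rhy 3; also 1 with DESeq2 on the 6 libraries, and 2 without control 2 or Rhy 2), 4 for importers (without control 2; 5 without Rhy 3) and 4 for RNA polymerase (without Rhy 2 or Rhy 3). Of the respiratory chain families 5 of 46 complex I genes (Nduf) and 0 of 24 cytochrome oxidase genes (Cox) were higher. The complex I count was 15 without control 1 (median 0.47), 3 without control 3, and 1 without control 2 or Rhy 1. As a large family with another role, numbered zinc finger genes (Zfp) gave 6 higher and 13 lower of 349, and a median of -0.0028.

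Gene length moved with the comparison as a whole, and the ribosomal protein families hold short transcripts. Genes were split by deposited length into 5 groups of equal size. In the group of the shortest (57 to 1915 bases) 10.2% were higher and 2.54% lower at an unadjusted p under 0.05, and in the group of the longest (7007 to 123179 bases) 2.48% were higher and 8.87% lower. The median log2 fold change was 0.14 in the shortest and -0.13 in the longest group. For model against control the same medians were 0.0052 and -0.018. Median length was 2255 bases for the mitochondrial and 1770 for the cytosolic ribosomal protein genes, 4178 for the DNA replication genes and 3890.5 for all genes tested. The 12 leading genes on the higher side had a median of 2270.5 bases and the 12 on the lower side 11713.5 bases. When libraries were scaled separately within each of the 5 length groups, the median log2 fold change was 0.35 for the mitochondrial and 0.39 for the cytosolic ribosomal proteins, with 26 and 23 genes higher, and that of the replication genes was 1.11, with 28 higher. The part of RNA quality or library preparation in this relation was not tested.

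**Figure D3:**
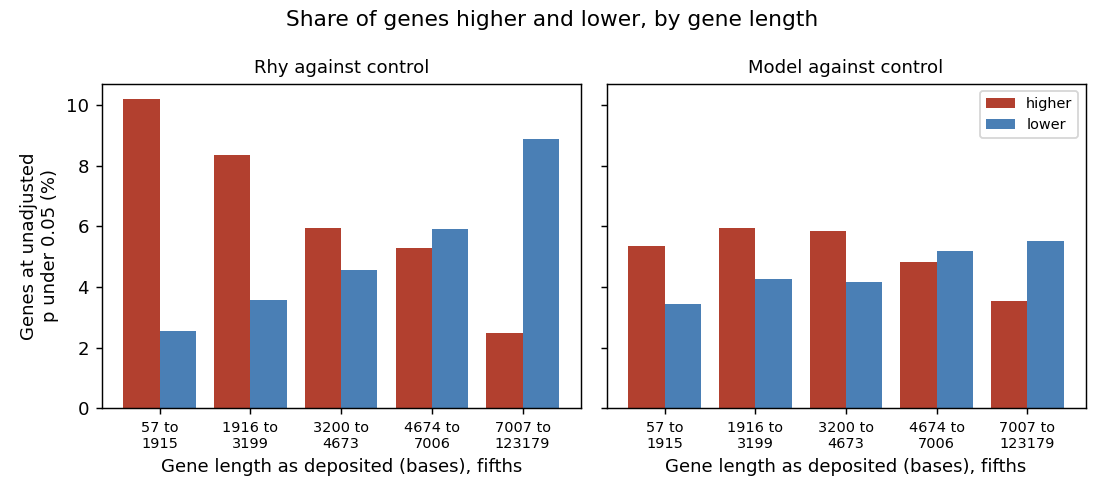
Bars give the percentage of genes at an unadjusted p under 0.05 that were higher or lower than in the control group, in 5 groups of genes by deposited length in bases. For Rhy the higher share goes from 10.2% in the shortest to 2.48% in the longest genes and the lower share from 2.54% to 8.87%, a wider span than for model.

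Of 32 unfolded protein and heat shock genes 4 were higher (12.5%, against 6.46% of all genes) and 1 lower at an unadjusted p under 0.05, with a median of 0.42 for Rhy and 0.44 for model against control. Hspe1, the mitochondrial co-chaperonin, was at 55, 70.7 and 99.2 CPM in control, 131.5, 138 and 171 CPM in model and 149.5, 166 and 174 CPM in Rhy colon (log2 fold change 1.12, SE 0.26, edgeR adjusted p = 0.364). Model and Rhy libraries both lay above all controls. Bag3, a co-chaperone, was at 49.3, 43.5 and 47.4 CPM in control and 55.7, 71.8 and 68.8 CPM in Rhy colon, and the log2 fold changes of Hsph1 and Dnaja1, which assist Hsp70, were 1.33 (SE 0.53) and 0.92 (SE 0.37). Edem1, which sends misfolded proteins of the endoplasmic reticulum to degradation, was lower, at 95, 141 and 161 CPM in control and 84.2, 97.4 and 83.4 CPM in Rhy colon. The number of members higher was 11 without control 3, 9 without Rhy 1, 2 without Rhy 2 and 1 without Rhy 3 or control 2.

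Of 19 circadian genes 11 had a negative and 8 a positive log2 fold change. At an unadjusted p under 0.05, 7 were lower (36.8%, against 5.09% of all genes) and 0 higher. The Rhy and control libraries did not overlap for those 7, where 4.79% of all genes were lower without overlap. The median log2 fold change was -0.29 for Rhy and -0.58 for model against control. Per1, a repressor of the clock, was at 95.1, 79.6 and 77.5 CPM in control, 47.3, 47.6 and 42.5 CPM in model and 61, 42.8 and 32.6 CPM in Rhy colon (log2 fold change -0.89, SE 0.22, edgeR adjusted p = 0.364). Per3 was at 54.8, 62 and 41.9 CPM in control and 29.3, 28.7 and 30.7 CPM in Rhy colon, and Cry2, another repressor, at 45.9, 70.4 and 46.3 CPM and at 39.5, 33.2 and 27.5 CPM. Tef, an output factor of the PAR bZIP family, was at 171, 229.5 and 161 CPM in control and 150, 115 and 84.8 CPM in Rhy colon. The other 3 of the 7, named after their values were seen, were Dbp (log2 fold change -1.17), Nr1d1 (-1.26) and Ciart (-1.24). Arntl, the activator that drives them, was at 6.59, 4.73 and 4.34 CPM in control and 5.31, 10.2 and 7.92 CPM in Rhy colon, and the ranges overlapped. Without Rhy 3, 3 genes were lower, and without control 2, 4. The hour at which tissue was taken is not given in the labels, so time of day and treatment cannot be told apart.

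Promoters are shown for clock genes because the E-box CACGTG, a palindrome, is the textbook site of the activator pair of the clock. It was present in the 250 bases before the start of 5 of 16 matched clock genes (31.2%) and of 959 of 11930 promoters (8.04%). Of the 7 genes that were lower, 3 held it, and the last 150 bases of Tef at chr15:81802523-81802672 on the + strand and Ciart at chr3:95882229-95882378 on the - strand are printed with E-boxes in capitals.
Tef: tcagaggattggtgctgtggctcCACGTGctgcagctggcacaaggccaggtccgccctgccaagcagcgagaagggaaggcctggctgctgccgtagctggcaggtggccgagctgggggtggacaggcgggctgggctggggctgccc
Ciart: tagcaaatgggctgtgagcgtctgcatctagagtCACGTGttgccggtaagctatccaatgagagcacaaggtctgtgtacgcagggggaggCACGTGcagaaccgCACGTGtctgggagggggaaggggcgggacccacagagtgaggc
Ciart, a repressor of the activator pair, holds 3 E-boxes in this stretch and was at 20.4, 14.1 and 10.9 CPM in control, 3.48, 3.46 and 8.28 CPM in model and 10, 6.4 and 2.89 CPM in Rhy colon. Its Rhy and control libraries did not overlap.

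Immediate early genes, which include the NR4A receptors, lay at a median log2 fold change of -0.38 for Rhy and -0.77 for model against control. At an unadjusted p under 0.05, 4 of 25 were lower (16%, against 5.09% of all genes) and 0 higher. Jun, a subunit of AP-1, was at 306, 341 and 279 CPM in control, 120 to 202 CPM in model and 225, 171 and 122 CPM in Rhy colon (log2 fold change -0.84, SE 0.27, edgeR adjusted p = 0.364). The growth inhibitor Btg2 (-0.75, SE 0.28), Zfp36, which degrades cytokine mRNA (-0.61, SE 0.24), and the factor Klf6 (-0.55, SE 0.23) made up the rest. Nr4a1 itself was at 25.2, 18.6 and 39.9 CPM in control, 15.3, 12.5 and 13.9 CPM in model and 11.2, 33.8 and 63.5 CPM in Rhy colon, so that the Rhy libraries lay on both sides of the control range. Its log2 fold change was 0.38 (SE 0.78, edgeR adjusted p = 0.879), and -0.31 without Rhy 3. Without 1 library 2 to 6 members of the list were lower, with the fewest without Rhy 1.

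**Figure D4:**
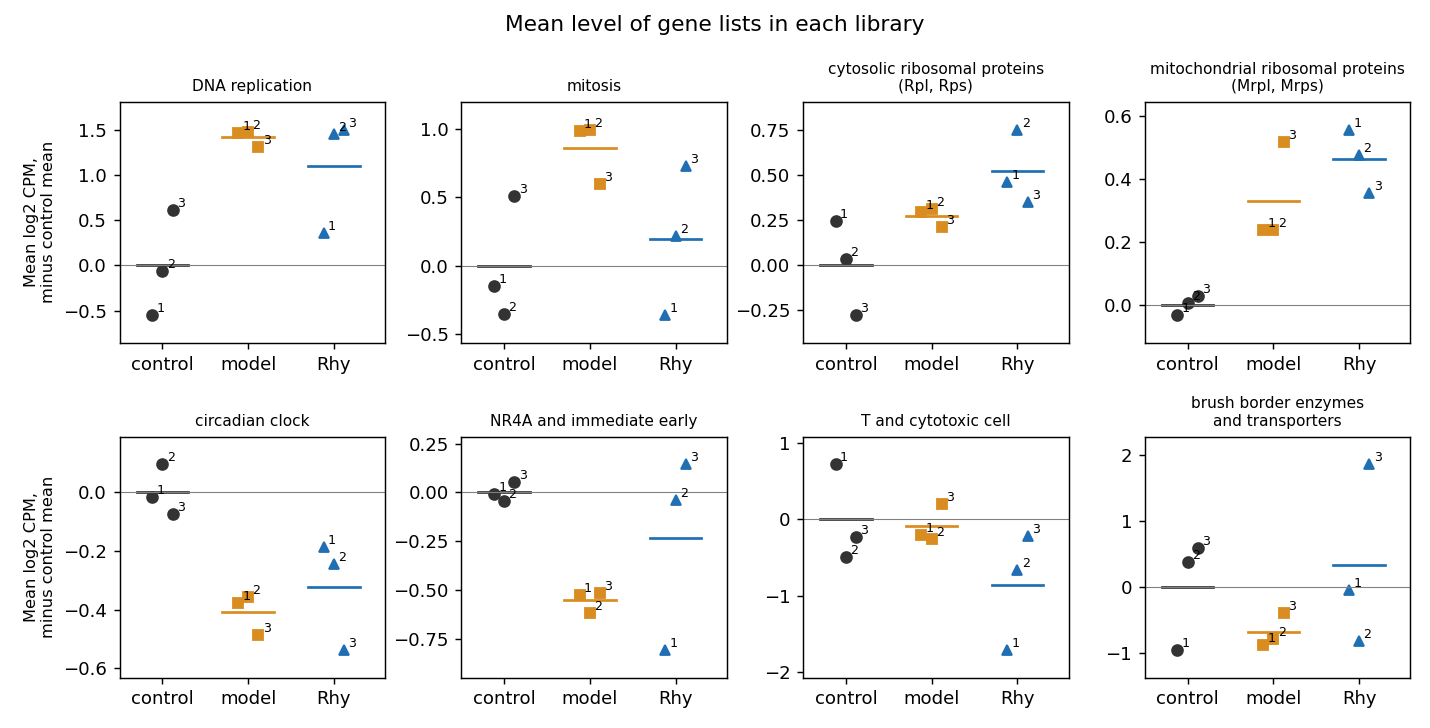
Each point is the mean log2 CPM of a gene list in 1 library, numbered by replicate, minus the mean of the control group, and short lines are group means. In DNA replication Rhy 1 lies within the control range while Rhy 2 and Rhy 3 lie beside the model libraries, and in the brush border list Rhy 3 stands above all others.

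Genes of the microvillus core were below the untreated level in value, and few passed the test. Of 16 members 15 had a negative log2 fold change, with a median of -0.58 for Rhy and -0.99 for model against control. At an unadjusted p under 0.05, 2 were lower (12.5%, against 5.09% of all genes). Myo7b, a myosin of the complex that links microvillus tips, was at 413, 511 and 319 CPM in control, 143, 149 and 190 CPM in model and 228, 181 and 149 CPM in Rhy colon (log2 fold change -1.16, SE 0.35, edgeR adjusted p = 0.364). The tip-link protocadherin gene Cdhr2 was at 927, 1233 and 856 CPM in control, 439, 435 and 499 CPM in model and 740, 496 and 373 CPM in Rhy colon (-0.91, SE 0.35). The Rhy libraries lay below all controls in both genes. Their number was 6 without control 3, 5 without Rhy 1, 3 without control 1, and 1 without control 2, Rhy 2 or Rhy 3.

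The brush border enzymes and transporters gave 3 of 24 higher (12.5%, against 6.46% of all genes) and 0 lower at an unadjusted p under 0.05. The 3 higher rested on 1 library. The aminopeptidase gene Anpep was at 13.4, 6.75 and 9.77 CPM in control and 4.37, 10.1 and 579 CPM in Rhy colon, the apolipoprotein gene Apoa1 at 0.524, 1.11 and 0.275 CPM and at 0, 0.131 and 461 CPM, and the amino acid transporter gene Slc6a19 at 3, 0.904 and 3.51 CPM and at 1.28, 2.74 and 51.1 CPM. Rhy 1 and Rhy 2 lay within or near the control range for all 3, and Rhy 3, the library with Fabp6 at 324 CPM, lay far above it. Without Rhy 3 none of the 24 was higher, and the median of the list changed from 0.18 to -0.43. Reg4, a lectin of secretory cells in the antimicrobial list, was split in another way. It was at 15.4, 74.7 and 28.1 CPM in control and 2.83, 230 and 537 CPM in Rhy colon. Rhy 2 and Rhy 3 thus lay above all controls and Rhy 1 below them. With 1 library left out its log2 fold change was 1.57 to 3.56.

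Tight junction genes, which the study followed as a measure of the barrier, gave counts near those of all genes. The median log2 fold change of the 29 members was -0.25 for Rhy and -0.34 for model against control, with 2 higher and 2 lower at an unadjusted p under 0.05 (6.9% each, against 6.46% and 5.09% of all genes). Tjp1, which encodes ZO-1, was at 114, 186 and 122 CPM in control, 93.6, 93.6 and 84.8 CPM in model and 108, 113 and 111 CPM in Rhy colon. All 3 Rhy values lay between the model range and the control range, and the log2 fold change against control was -0.34 (SE 0.21, edgeR adjusted p = 0.537). Ocln was at 67.2, 106 and 106 CPM in control and 92, 78.3 and 65.2 CPM in Rhy colon (-0.25, SE 0.22), and Cldn4 at 66.5, 183 and 114 CPM and at 92.8, 84.2 and 82.4 CPM (-0.49, SE 0.50). None of the 3 passed an unadjusted p of 0.05, which does not show that they equalled the control level. The members higher were Cldn1 (log2 fold change 2.33, at 0.15 to 0.626 CPM in control and 0.599 to 4.07 CPM in Rhy colon) and Cldn8 (1.5), both claudins, and the members lower were the scaffold genes Magi1 (-0.66) and Cgn (-0.49). With 1 library left out, 0 to 7 members were lower, the fewest without Rhy 3 and the most without control 3.

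Of 11 genes of the AhR list 0 were higher and 1 lower at an unadjusted p under 0.05 (9.09% lower, against 5.09% of all genes). The median log2 fold change was -0.021, and it ran from -0.39 without control 1 to 0.27 without control 2. The gene lower was the glucuronosyltransferase Ugt1a6a (-1.86), which shares exons with the other Ugt1a genes, so its count is uncertain. Ahr was at 14.6, 18.4 and 18.3 CPM in control and 16.3, 20.4 and 23.1 CPM in Rhy colon (log2 fold change 0.22, SE 0.22, edgeR adjusted p = 0.708). Cyp1a1, the best known AhR target, was at 0.0749, 254 and 10.4 CPM in control, 6.18, 6.13 and 16.6 CPM in model and 19.5, 25.2 and 16.3 CPM in Rhy colon. The Rhy libraries were close together inside a control range that 1 library set, and the log2 fold change of -2.12 (SE 1.40, edgeR adjusted p = 0.567) became 1.92 without control 2 and was 0.076 or 1.01 with limma on FPKM. In the wider list of drug and steroid metabolism 2 of 47 were higher (4.26%) and 3 lower (6.38%), with a median of -0.50. Of all genes 6.46% were higher and 5.09% lower. The glutathione transferase gene Gsta4 was at 79.3, 81.6 and 83.2 CPM in control, 115, 109 and 155 CPM in model and 139.5, 148 and 113 CPM in Rhy colon (0.71, SE 0.18, edgeR adjusted p = 0.364). Gsta3 was also higher (1.61, SE 0.65), and the cytochrome genes Cyp27a1, Cyp3a13 and Cyp2d34 were lower, with log2 fold changes of -1.04, -1.61 and -1.32. Without Rhy 1, 13 of the list were lower and the median was -1.18.

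The study named Ccnd2, Lpar1, Fgfr2 and Epha2 and proposed a role of the Hedgehog pathway, of which Gli1 is a target. Of 26 genes of the Hedgehog list 1 was higher, Ccnd2, and 0 lower at an unadjusted p under 0.05. That is 3.85% higher, against 6.46% of all genes, and the median log2 fold change was -0.12. Ccnd2, the cyclin D2 that drives entry into the cell cycle, was at 32, 58.3 and 88.5 CPM in control, 104, 102 and 108 CPM in model and 81.5, 176 and 334 CPM in Rhy colon (log2 fold change 1.72, SE 0.53, edgeR adjusted p = 0.364). Rhy 1 lay inside the control range, and Rhy 3, the highest, is the library with the high level of the small intestinal gene Fabp6. The log2 fold changes of Gli1 (-0.41, SE 0.62), Lpar1 (0.05, SE 0.18), Fgfr2 (-0.45, SE 0.35) and Epha2 (0.08, SE 0.36) did not pass an unadjusted p of 0.05, and their control and Rhy ranges overlapped. In mice the study measured cytokines as protein, in serum by its methods, and MPO as activity in the colon. Colon RNA is a different measure and does not test those values. The log2 fold change of the RNA was -1.23 for Tnf (SE 0.72, edgeR adjusted p = 0.51), 0.35 for Cxcl1 and -0.12 for Il1b. Il6 had 0 to 2 reads and Mpo 0 to 4 reads in these 6 libraries and were not tested. In the list of 25 neutrophil and acute inflammation genes 0 were higher and 0 lower at an unadjusted p under 0.05, with medians of -0.12 for Rhy and -0.48 for model against control.

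T cell genes were lower in value throughout the list. All 23 measured members had a negative log2 fold change of Rhy against control, with a median of -0.89. At an unadjusted p under 0.05, 5 were lower (21.7%, against 5.09% of all genes). In bulk tissue fewer cells of a type and less RNA per cell cannot be told apart. Cd3e, a chain of the T cell receptor complex, was at 4.87, 3.69 and 4.28 CPM in control, 2.43, 3.22 and 4.11 CPM in model and 0.599, 1.11 and 2.26 CPM in Rhy colon (-1.66, SE 0.58, edgeR adjusted p = 0.364). The kinase gene Lck was at 14.8, 9.53 and 8.12 CPM in control, 9.54, 10.4 and 11.1 CPM in model and 3.25, 8.03 and 6.05 CPM in Rhy colon (-0.90, SE 0.35). The co-receptor gene Cd8a was at 6.44, 2.78 and 6.15 CPM and at 1.63, 1.045 and 3.73 CPM (-1.25, SE 0.51). The summed level of the list was 80.4 to 189 CPM in control, 90.9 to 138 CPM in model and 38.4 to 95 CPM in Rhy colon, lowest in Rhy 1, which also nearly lacked B cell genes. Without Rhy 1 the median was -0.62 with 1 member lower, and without control 1 it was -0.42 with 1 member lower. With a term for low Hoxb13 it was -0.81 with 4 lower.

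In the stromal lists 9.09% of smooth muscle and 8% of matrix genes were higher at an unadjusted p under 0.05, against 6.46% of all genes. Groups did not overlap, with Rhy higher, for 5 of 22 smooth muscle and 1 of 50 matrix genes, where 7.5% of all genes were higher without overlap. The smooth muscle list lay at a median log2 fold change of 0.37 for Rhy and 0.12 for model against control, with 21 of 22 positive and 2 higher at an unadjusted p under 0.05. The contractile actin gene Actg2 was at 1275, 618 and 595 CPM in control, 866, 884 and 748 CPM in model and 1403, 1501 and 1356 CPM in Rhy colon (0.78, SE 0.33, edgeR adjusted p = 0.407), and Hspb6, a small heat shock protein of muscle, was at 13.7 to 29.7 CPM in control and 32.2 to 36.8 CPM in Rhy colon. Without control 1, 10 were higher, and without control 3, 0. Of 50 collagen and matrix genes 4 were higher and 2 lower, with a median of 0.08. The proteoglycan gene Ogn was at 53.8, 49.6 and 46.6 CPM in control, 41.8, 39.3 and 50.9 CPM in model and 60.3, 82.2 and 85.8 CPM in Rhy colon (0.61, SE 0.24), and Lum at 14.9, 17 and 24.2 CPM and at 16.6, 42.6 and 74.3 CPM (1.25, SE 0.46). Col14a1 and Mfap5 were also higher, and the collagenase gene Mmp13 and Emilin1 lower. Rhy 1 lay inside the control range for Lum and below it for Col14a1 and Mfap5. Without Rhy 3, 0 matrix genes were higher, and without Rhy 1, 11 were.

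The remaining lists held few or no members at an unadjusted p under 0.05, where 6.46% of all genes were higher and 5.09% lower. In the epithelium, 1 of 26 genes of colonocyte ion and water transport was higher, the potassium channel subunit gene Kcne3, at 59.3, 50.1 and 43.2 CPM in control and 70.5, 156 and 110 CPM in Rhy colon (1.14, SE 0.37). Among 17 stem cell and Wnt genes Cdca7, a target of Myc, was higher (0.94) and Prom1, a membrane protein of microvilli and progenitor cells, lower (-1.38). Their median was 0.40, with 14 positive. Without control 3, 7 were higher (median 0.95), without Rhy 1, 3, and without control 1, control 2 or Rhy 2, 0. Antimicrobial and epithelial alarm genes gave 3 higher of 26, Anxa1 (1.05), S100a11 (1.09) and Reg4, and 1 lower, Sprr1a (-2.01). Goblet cell genes had a median of -0.35 and plasma cell genes -0.91, each with 1 member lower (Capn9 and Prdm1). The goblet median was 0.14, with 3 higher, without control 3, and -0.59, with 5 lower, without control 2. The plasma cell median was -0.03 without control 1 and -0.43 without Rhy 1. In addition, the mucin gene Muc2 ranged from 351 to 6710 CPM among the control libraries alone. Endothelial, fat cell, B cell, macrophage, MHC class II, enteroendocrine, colon-defining, posterior Hox and mitochondrially encoded lists had 0 members higher and 0 lower. As in the T cell list, all 13 MHC class II genes had a negative log2 fold change (median -0.67), and so had 17 of 20 B cell genes (median -0.50). Without control 1 these medians were -0.021 and -0.12, and without Rhy 1 they were -0.30 and 0.049. The lists of enteric neurons, fatty acid oxidation and cholesterol synthesis had 1 member higher each, Nefm, Acss2 and Pmvk. Without Rhy 3, 8 enteric neuron genes were higher. Without Rhy 1, 11 fatty acid oxidation genes were lower (median -0.56), as were 4 without control 1 and 5 with the term for low Hoxb13. Cela1 was the 1 acinar gene higher, Cxcl9 the 1 interferon-stimulated gene lower, and Reg3a and Mptx1 were the 2 small intestinal genes higher.

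**Figure D5:**
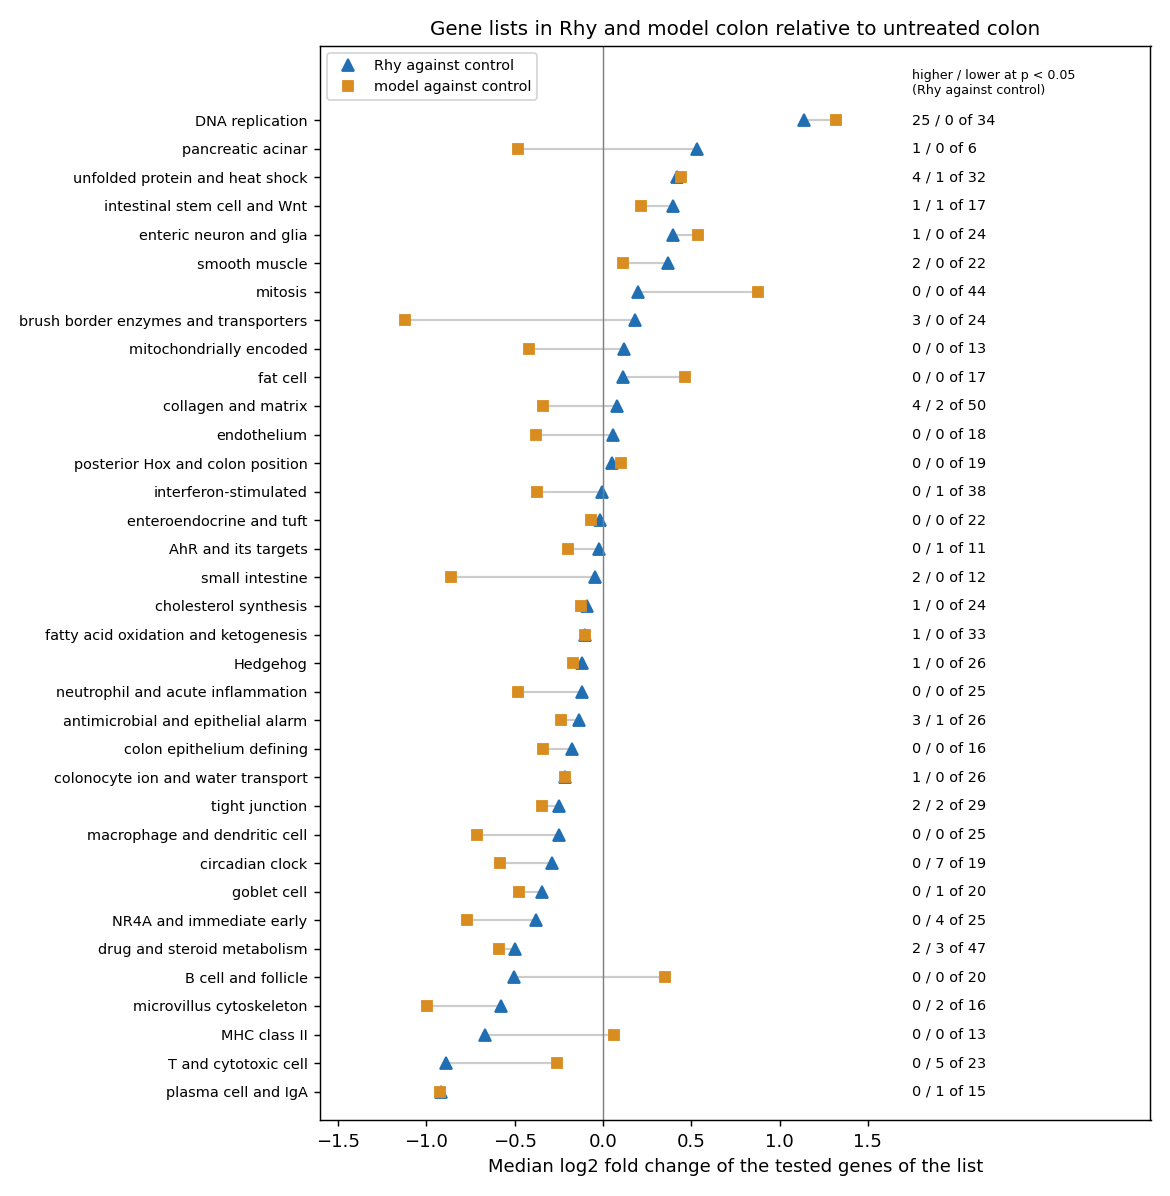
Triangles give the median log2 fold change of each list for Rhy against control and squares for model against control, with the number of members higher and lower at an unadjusted p under 0.05 in the Rhy comparison at the right. DNA replication stands at 1.14 and 1.32, mitosis at 0.20 and 0.88, and the T cell list at -0.89 and -0.26. Both comparisons use the same 3 control libraries.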

How the data were processed

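RNA-seq was made from bulk mouse colon, 12 libraries in 4 groups of 3. The authors deposited raw read counts for 54532 genes and FPKM values, and the submitters' processing notes name HISAT2 2.0.5, featureCounts 1.5.0-p3, DESeq2 1.16.1 and mm10. The annotation, the strand setting and the filters are not given in the sources used here, so overlapping and antisense genes cannot be separated. The deposited gene coordinates of 99.9% of the tested genes found in GENCODE M21 overlapped that annotation's (GRCm38).

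Counts were scaled by TMM and tested with edgeR 4.0.16 (R 4.3.3), quasi-likelihood, two-sided, on all 12 libraries without covariates, for genes that passed filterByExpr at a minimum count of 10. CPM values use TMM-scaled library sizes. The design behind the DESeq2 named in the notes is not given in the sources used here. The DESeq2 1.42.0 and limma 3.58.1 (log2 of FPKM plus 1 or 0.1) fits are alternatives. Tests were checked on simulated data drawn with a fixed spread around the same means in all replicates of a group. Those data lack the differences between replicates described above, so the check does not cover them. Depth was 14346478 to 17749716 counts in a library, and between replicates the libraries differed far more than counting noise. Model 1 and model 2 were close, with a mean chi-square per gene of 3.06 against 69.7 and 71.1 for the other model pairs. The medians were 0.886 against 6.52 and 7.05. Model 1 and model 2 were above the noise in the mean and stayed separate, and a fit with their counts summed is given below.

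Members and gene lists were chosen with earlier results of these data known. Genes were named by a rule: with no adjusted call, the 12 protein-coding genes in each direction with the smallest p, a mean of 5 CPM and groups that do not overlap. From each of 35 lists the rule took up to 4 genes in each direction at an unadjusted p under 0.05 and the 3 of highest level, and it added the genes the study followed and Gli1. Genes outside the rule, and 12 families formed from symbols, were chosen after their values were seen. Promoter sequences are RefSeq's.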

Additional observations from a re-analysis of the deposited data

How the results depend on the processing

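The number of genes with an adjusted p under 0.05 was 1 with edgeR on every gene with a count (Rps26-ps1), 33 with DESeq2 on 12 libraries and 2 with DESeq2 on 6. It was 0 under RLE and upper-quartile scaling, protein-coding genes alone, limma and each omission of a library. The number at an unadjusted p under 0.05 was 999 in the fit to 6 libraries, 1163 with DESeq2 on 6, and 1195 (without Rhy 2) to 2938 (without control 3) when 1 library was left out. Fewer libraries or other libraries enter these fits. Among those genes 46.9% (DESeq2 on 12 libraries) to 61.6% (upper-quartile scaling) were higher, against 55.9% in the fit reported. With the counts of model 1 and model 2 summed, 1656 genes had an unadjusted p under 0.05, against 1953, and 0 passed adjustment. In that fit 27 cytosolic ribosomal protein genes were higher, against 35 in the fit reported. Proteasome genes gave 11, against 17, and replication genes 25 in both fits.

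Replicate numbers are shared between groups without a stated link, and deviations of same-numbered control and Rhy libraries correlated at -0.31, -0.114 and -0.0458. With the replicate number as a block, 2098 genes had an unadjusted p under 0.05, 1702 of them shared with the fit without it, and 0 passed adjustment. The fits with scaling inside each of 5 groups of gene length (1801 genes) and with a term for low Hoxb13 (2313) were chosen after seeing the data.

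Of 2219 fold changes of single genes under alternatives, 20 in 15 genes changed sign. For Cyp1a1 the log2 fold change was 0.0758 and 1.01 with limma at pseudocounts 1 and 0.1. With 1 library left out it ran from -2.7 to 1.92 for Cyp1a1, -0.658 to 0.148 for Mki67, -0.997 to 0.0717 for Gli1, -0.163 to 0.239 for Epha2, -2.08 to 0.12 for Igha, -0.072 to 0.502 for Ube2c, -0.788 to 0.000194 for Fgfr2 and -2 to 0.0897 for Muc2. It also ran from -0.0743 to 0.845 for Top2a, -0.459 to 4.89 for Anpep, -2.99 to 8.61 for Apoa1, -0.287 to 3.44 for Slc6a19, -0.5 to 3.12 for Reg3b, -0.307 to 0.802 for Nr4a1 and -0.0247 to 0.121 for Lpar1. Anpep, Apoa1, Slc6a19, Reg3b, Nr4a1, Lpar1 and Top2a changed sign without Rhy 3. The cause was not tested. Replicates differed beyond counting noise, and groups of 3 libraries limit the precision.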
